A study of Capra hircus with 3 samples.

Results

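The set described here holds 59 nuclear genes of the mitochondrial respiratory chain and ATP synthase, measured in dairy goat mammary gland. Members were chosen by name and not by any measured value: each is a protein-coding goat gene whose symbol starts with the prefix of a subunit of complexes I to V, with the assembly factors named NDUFAF and SDHAF left out. The gene table used for matching lists 60 such genes, and 59 of them had a row with FPKM (a level of transcript that is corrected for its length and for how many fragments were sequenced), out of 13023 protein-coding genes with FPKM in all. ATP5I had no such row. Complex I had 39 members, complex II had 4 and complex V, the ATP synthase, had 16. Complexes III and IV and the subunits encoded by the mitochondrial genome were not analysed here.

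RNA came from mammary gland of healthy Laoshan dairy goats that were 4 years old and in the same lactation, with no transgene and no treatment. Tissue was taken in early lactation (day 10 after parturition), peak lactation (day 90) and late lactation (day 210), and RNA of 5 goats was pooled into 1 strand-specific library per stage. With 1 library per stage there is no spread between replicates, so no test was possible, no p-value is given, and every ratio is a description of 2 pooled libraries. The number of reads behind each FPKM is unknown, so counting errors could not be given either.

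The labels of 2 libraries could not be taken as certain. In the lists of lncRNAs that differed between stages, as the study gives them, the late-stage values mostly run with the FPKM column whose label is peak. Most genes of the peak and late list also run against the direction of the labels. The reverse match, of the peak stage to the late column, is weaker. There the early and peak list fits the late column only slightly better than the column of its own label. For mRNAs the study reports mostly higher levels in late lactation. By label, late over peak had 1113 protein-coding genes at least 2-fold higher and 2263 lower, which runs against the labels. Of genes with at least 10 FPKM in both columns, 378 were higher and 100 lower, which runs with them. The study also reports fewer differing lncRNAs and mRNAs between early and peak lactation than between the other stages. By label, late over early had the smallest share of protein-coding genes at least 2-fold apart, at 8.71%. The share was 17.7% in peak over early and 25.9% in late over peak. This order runs against the labels and with an exchange of the peak and late columns. Neither assignment is settled here. The libraries are therefore called by their labels throughout, and if these columns were exchanged, each value given for one would belong to the other. The labelled tissue was checked against secretory epithelium, and all 8 luminal secretory markers searched for were found. The milk protein gene LALBA, however, stood at 0 in the column of the late stage, against 70053 FPKM in the early one. Why it stood at 0 was not tested, and an exact 0 in this table is not read here as absence of the transcript. No member was at 0 in any library. The locus with the highest FPKM took 30.0%, 46.0% and 29.9% of all FPKM in the early, peak and late columns, and protein-coding genes took 47.2%, 30.0% and 45.4%.

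The respiratory chain lies in the inner membrane of the mitochondrion. Complex I (NADH dehydrogenase) takes electrons from NADH, and complex II (succinate dehydrogenase) takes them from succinate and is also an enzyme of the citrate cycle. Electrons pass through coenzyme Q to the later complexes, protons are pumped out of the matrix, and complex V lets them back in to make ATP. In the lactating gland the secretory epithelial cells are rich in mitochondria, and ATP is spent there on the synthesis of milk protein, lactose and fat.

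The members were among the more abundant protein-coding transcripts in every library. Their median level was 41.6 FPKM in the library labelled early, 26.4 FPKM in the one labelled peak and 47.9 FPKM in the one labelled late, and 92.6%, 89.5% and 93.7% of protein-coding genes lay below these medians. Levels reached 10 FPKM in 53, 51 and 54 of the 59 members. ATP synthase subunits were the most abundant group, with a median of 75.4, 42.1 and 77.0 FPKM, followed by complex II with 68.9, 39.9 and 71.0 FPKM and complex I with 38.8, 23.8 and 37.9 FPKM. The order of the 3 complexes was therefore the same in each library. ATP5B, the catalytic beta subunit of the ATP synthase head, was the most abundant member at 189, 113 and 188 FPKM. NDUFA4L2, a paralog of NDUFA4, was the least abundant at 1.21, 0.650 and 1.09 FPKM.

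**Figure D1:**
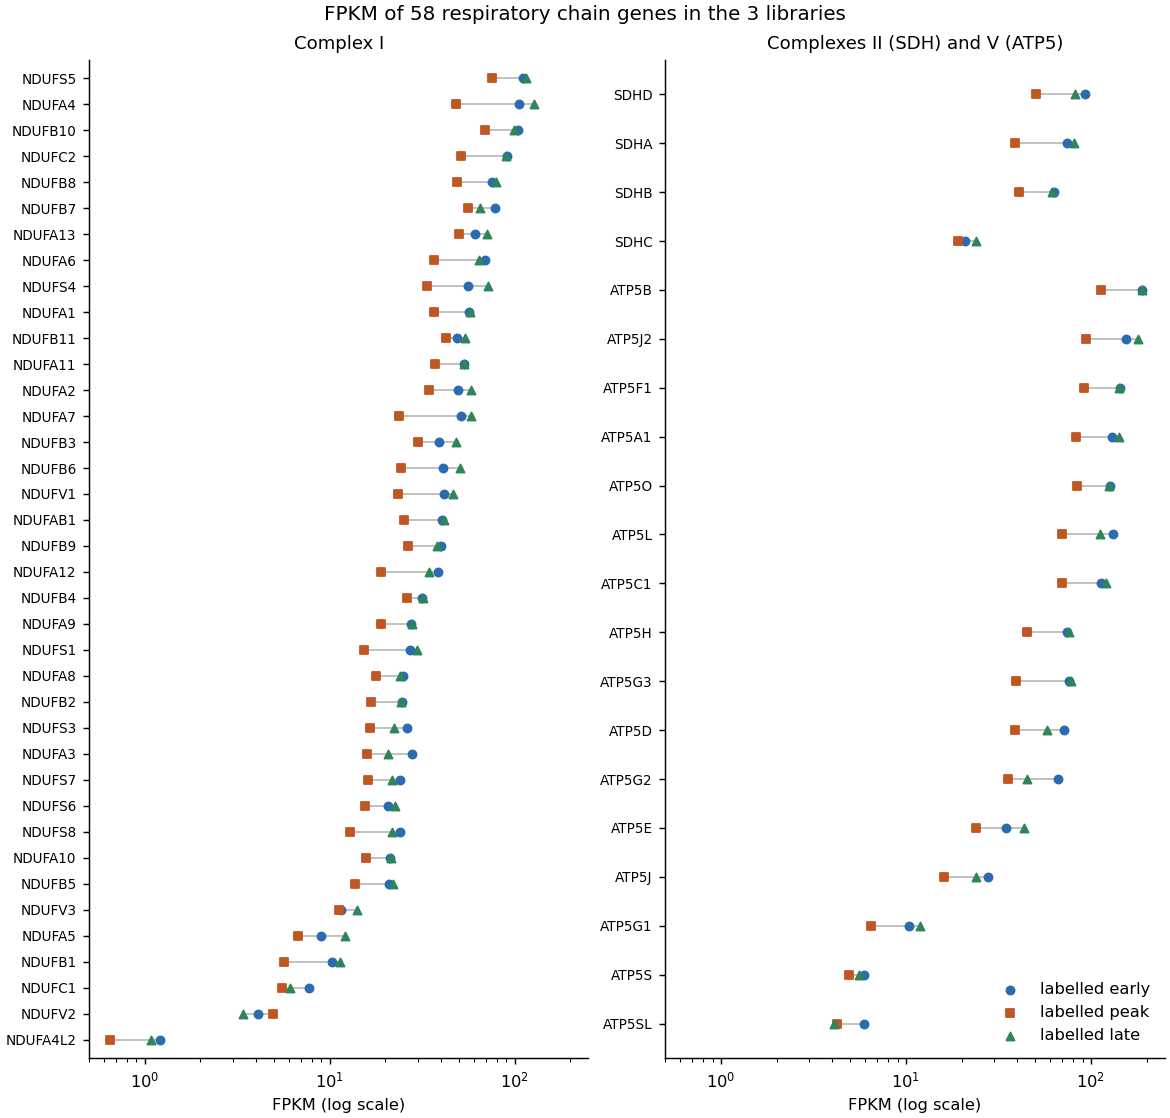
FPKM of 58 of the 59 members (rows, grouped by complex) on a log axis in the early, peak and late columns, 1 point per library and no error bars because each stage has 1 pooled library. For 56 of the 58 genes the point of the library labelled peak lies furthest to the left, which holds for the FPKM as deposited.

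Members kept their relative levels across the libraries. The Spearman correlation of FPKM over the 59 members was 0.97 for the early and peak columns, 0.98 for the early and late columns, and 0.97 for the late and peak columns, as a description over genes that share libraries. The summed FPKM of the members was 3272, 2044 and 3326 in the early, peak and late columns. Complex V gave 41.6%, 40.1% and 40.8% of that sum, so the balance between ATP synthase and the other members moved by less than 2 percentage points. As a share of all protein-coding FPKM the members took 0.684%, 0.741% and 0.790%, whereas of the FPKM of all loci they took 0.323%, 0.223% and 0.358%. The library labelled peak was thus lowest by the second share and intermediate by the first. The protein-coding sums of 478221, 275836 and 421182 FPKM include the milk protein gene LALBA, at 70053, 15214 and 0 FPKM. The order by the first share therefore depends on that gene and is not read as a result about the members.

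The first comparison asks how the members stood at peak against early lactation. In the FPKM as deposited 58 of 59 members were lower in the library labelled peak, with a median log2 ratio of -0.63 (1.55-fold lower), although this direction turned to 0.17 when FPKM were rescaled to equal protein-coding sums. The middle 50% of members lay between -0.83 and -0.49 and the whole set between -1.14 and 0.28. At least 2-fold differences were seen for 3 members, all lower, which is 5.08% of the set against 17.7% of all protein-coding genes in either direction. Low levels give many of the large ratios among all genes: of genes that reached 10 FPKM in both columns, 8.08% differed 2-fold, as did 3 of the 51 members at that level. At a 1.5-fold limit, 36 members (61%) were lower against a background of 15.7% of protein-coding genes, and 0 members were higher against 21.1%. At 10 FPKM or more in both, 33 of 51 members and 19.2% of genes were 1.5-fold lower, and 0 members and 5.23% of genes were higher. The SD of the log2 ratios was 0.26 over the members and 0.53 over the 4233 other protein-coding genes that reached 10 FPKM in both columns.

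Protein-coding genes as a whole did not share this shift in the FPKM as deposited. The median log2 ratio was -0.03 over the 11479 protein-coding genes that reached 1 FPKM in both columns, and 13.5% of them had a ratio below the member median. Among the 4284 genes with at least 10 FPKM in both, a range of abundance closer to that of the members, the median was -0.19 and 17.2% lay below the member median. The more abundant members tended to have the lower ratios, with a Spearman correlation of -0.33 between mean FPKM and log2 ratio over the 59 members.

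**Figure D2:**
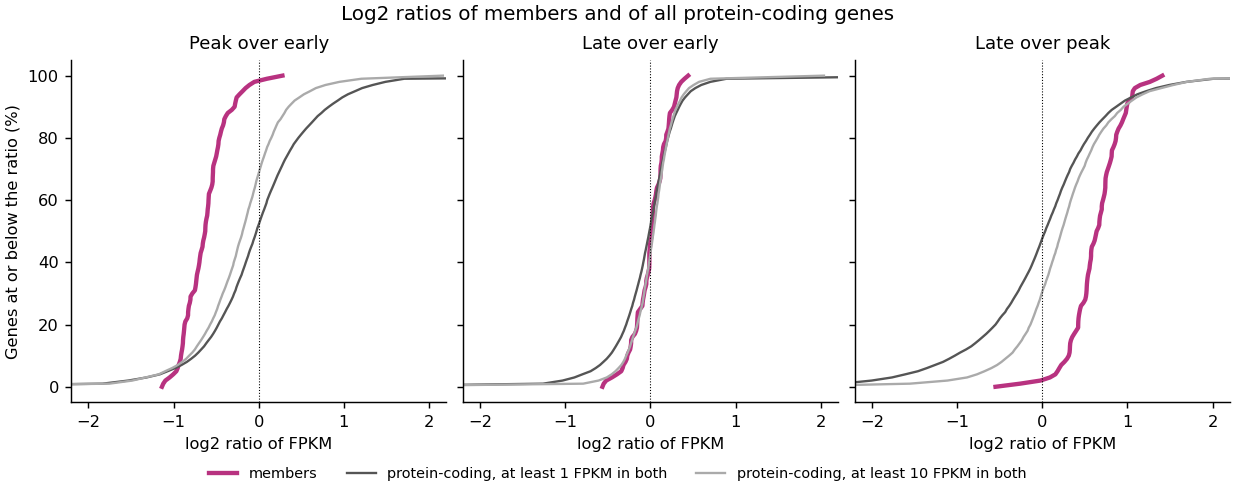
Cumulative share of genes (y axis, %) at or below each log2 ratio of FPKM as deposited (x axis, from -2.2 to 2.2) for the members and for protein-coding genes that reached 1 or 10 FPKM in both columns, 1 panel per comparison. The member curve stands left of both others for most of its course in peak over early (median -0.63 against -0.03 and -0.19), overlaps them in late over early and stands right of them in late over peak (median 0.64).

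Complex I carries electrons from NADH through a flavin and a row of iron-sulfur clusters, which sit in 7 nuclear-encoded core subunits, and is surrounded by many supernumerary subunits that have no part in catalysis. Its median log2 ratio of peak over early was -0.59, with 20 of 39 members at least 1.5-fold lower, and 0.20 after scaling to equal protein-coding sums. The 7 core subunits had a median of -0.65 and the 32 supernumerary subunits one of -0.57.

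NDUFV1, which binds the flavin and NADH, had 41.6, 23.4 and 46.2 FPKM in the early, peak and late columns, and so was 43.8% lower in the peak column. NDUFS1, the largest subunit of the NADH-oxidising arm, had 27.1, 15.3 and 29.6 FPKM. NDUFS8, which carries iron-sulfur clusters close to the membrane, had 24.0, 12.9 and 21.6 FPKM and the lowest peak over early ratio of the core subunits (-0.89). All 3 genes were lowest in the library labelled peak.

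NDUFS3 and NDUFS7, core subunits of the arm that leads to coenzyme Q, showed smaller differences and were also lowest in the library labelled peak. NDUFS3 had 26.1, 16.6 and 22.3 FPKM, and NDUFS7 had 24.1, 16.0 and 21.7 FPKM. Their log2 ratios of peak over early were -0.65 and -0.59.

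NDUFV2, an iron-sulfur subunit that stands beside NDUFV1 in the protein, was the exception among the 59 members. Its level was 4.08 FPKM in the library labelled early, 4.95 FPKM in the one labelled peak and 3.38 FPKM in the one labelled late. It was the only member with its highest value in the peak column (log2 ratio 0.28), and its FPKM was below that of every other core subunit in each library. NDUFV3, a small subunit of the same module, differed little between the early and peak columns at 11.5 and 11.2 FPKM, and had 14.0 FPKM in the late one. The 3 NDUFV genes thus had a median ratio of -0.04, but their ratios were scattered, with NDUFV1 at -0.83. The median was -0.62 for the 15 NDUFA genes, -0.58 for the 11 NDUFB genes and -0.62 for the 8 NDUFS genes.

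The 3 members at least 2-fold lower in the library labelled peak all belonged to the NDUFA genes. NDUFA4 had 106, 48.1 and 128 FPKM in the early, peak and late columns and was 54.5% lower in the peak column. The protein was first described in complex I and is now regarded as a subunit of complex IV, so it is placed here by its symbol only. NDUFA7 had 51.3, 23.8 and 58.4 FPKM and NDUFA12 had 38.3, 18.8 and 34.4 FPKM, which were 53.7% and 50.8% lower. With the FPKM scaled without the 20 highest genes of each library, 0 members reached 2-fold.

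Other supernumerary subunits lay closer to the early level. NDUFB4 had 31.3, 26.2 and 31.9 FPKM, and NDUFB11 had 48.7, 42.5 and 53.8 FPKM, with a log2 ratio of peak over early of -0.20 for NDUFB11. NDUFS5 was the most abundant complex I gene at 111, 75.4 and 115 FPKM. NDUFB1 had 10.3, 5.65 and 11.3 FPKM, but its entry spans 651020 nt and another entry has the same coordinates, so its level is uncertain.

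Complex II has a catalytic pair, the flavoprotein SDHA and the iron-sulfur protein SDHB, held in the membrane by SDHC and SDHD. SDHA had 74.3, 38.7 and 80.6 FPKM in the early, peak and late columns, and SDHB had 63.5, 41.1 and 61.3 FPKM. SDHD had 92.9, 50.7 and 82.3 FPKM. These 3 genes were at least 1.5-fold lower in the peak column than in the early one. SDHC was lower in level and less variable, at 20.9, 19.1 and 23.8 FPKM with a log2 ratio of -0.13. The median ratio of the 4 genes was -0.75, or 0.04 with equal protein-coding sums. SDHB and SDHD each share their coordinates with another entry of the table. With all such members left out, the median was -0.54 for complex II, over SDHA and SDHC only. It was then -0.57 for complex I and -0.70 for complex V, so the order of the complexes by ratio depends on these entries.

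Complex V consists of a head in the matrix that makes ATP, a peripheral stalk that holds the head still and a membrane part with a ring of c subunits that turns as protons pass. Its median log2 ratio of peak over early was -0.70, with 13 of 16 members at least 1.5-fold lower, or 0.09 with equal protein-coding sums. In the head, the alpha subunit ATP5A1 had 130, 82.5 and 142 FPKM and the gamma subunit ATP5C1 had 113, 69.6 and 121 FPKM, and the beta subunit ATP5B was 40.1% lower in the peak column. The delta subunit ATP5D had 71.8, 39.0 and 57.5 FPKM, and the epsilon subunit ATP5E had 34.7, 23.9 and 43.5 FPKM. All 5 head genes were lowest in the library labelled peak, whereas the late column was above the early one for 3 of them and below it for the others.

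The membrane part had the lowest median ratio of the ATP synthase groups, at -0.89 over 5 genes, against -0.70 for the 5 head genes and -0.68 for the 4 genes of the peripheral stalk. The c subunit of the ring is made from 3 genes that give the same mature protein, so their levels can be set side by side. ATP5G3 had 76.4, 39.3 and 78.0 FPKM, ATP5G2 had 66.3, 35.8 and 44.9 FPKM, and ATP5G1 had 10.3, 6.44 and 12.0 FPKM. In the peak column all 3 were lower than in the early one, and ATP5G1 was the least abundant in each library. The late column separated them, since ATP5G3 and ATP5G1 were back at or above the early level and ATP5G2 was not (log2 ratio of late over early -0.56).

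**Figure D3:**
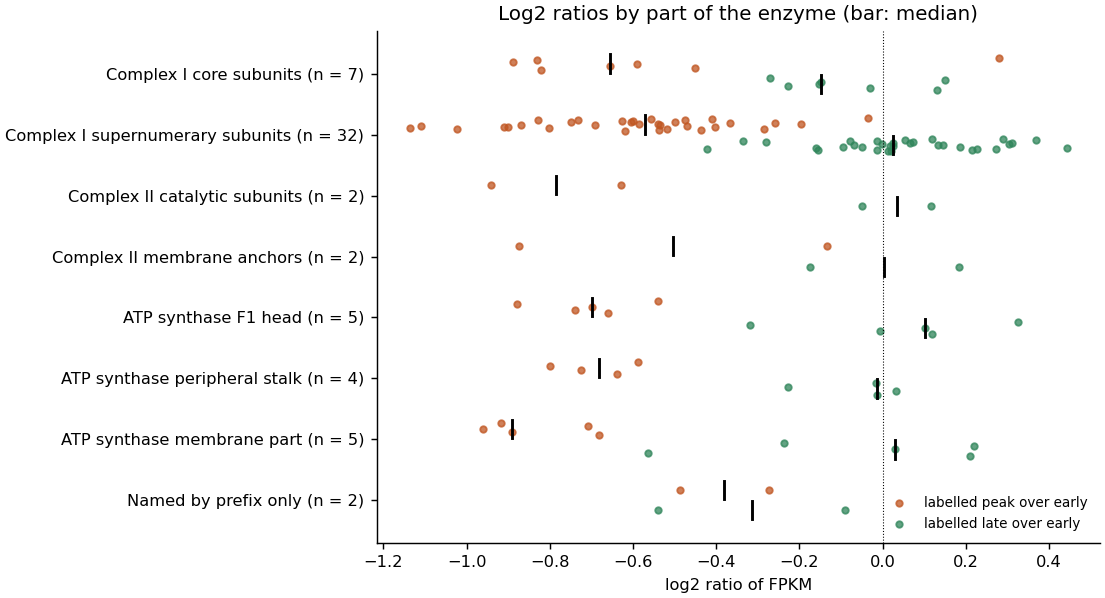
Log2 ratio of FPKM as deposited for each member (points), by part of the complex, with the median of each group as a bar, for peak over early and late over early. Group medians of peak over early run from -0.89 in the ATP synthase membrane part to -0.38 in the pair of genes named by prefix only.

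ATP5S and ATP5SL carry the prefix but are not subunits of the enzyme. Their levels were low, at 5.95, 4.92 and 5.59 FPKM for ATP5S and 5.94, 4.24 and 4.09 FPKM for ATP5SL. ATP5SL and NDUFV2 were the only members lowest in the library labelled late.

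The second comparison sets late against early lactation. The levels were close, with a median log2 ratio of 0.02, the middle 50% of members between -0.12 and 0.14, and 31 members higher and 28 lower. No member reached 2-fold, against 8.71% of protein-coding genes in either direction, but only 0.781% of those that reached 10 FPKM in both columns did so, a share at which 0 of 59 is no result about the members. At the 1.5-fold limit 0 members were higher, against 4.88% of protein-coding genes, and 0 were lower, against 12.9%. Of genes that reached 10 FPKM in both columns, 1.87% were higher and 2.08% lower. At such shares 0 of the 53 members at that level is no result about the members. The median over protein-coding genes with at least 1 FPKM in both was -0.01, and with equal protein-coding sums the member median was 0.20. Those sums include LALBA, at 70053 FPKM in the early column and 0 in the late one, so the 0.20 depends on that gene. Without the 20 highest genes of each library, LALBA among them, the member median was 0.035.

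Within this narrow range the highest late over early ratios included those of 4 supernumerary subunits of complex I. NDUFA5 had 8.94 FPKM early and 12.2 FPKM late, a log2 ratio of 0.44, and NDUFS4, a subunit of the NADH-oxidising arm whose loss causes Leigh syndrome in people, had 55.7 and 71.9 FPKM, a ratio of 0.37. ATP5E and NDUFB6 followed at 0.32 and 0.31, and NDUFB3 had 38.8 and 47.9 FPKM. The lowest ratios were those of ATP5G2 at -0.56, ATP5SL at -0.54 and NDUFA3 at -0.42. NDUFC1 and ATP5D were lower by less, at -0.33 and -0.32.

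The third comparison sets late against peak lactation and shares its libraries with the first pair, so it adds no separate evidence. In the FPKM as deposited 57 of 59 members were higher in the library labelled late than in the one labelled peak, with a median log2 ratio of 0.64, which came to 0.03 with equal protein-coding sums. At least 2-fold differences were seen for 6 members, all higher (10.2% of the set against 25.9% of protein-coding genes in either direction). At 10 FPKM or more in both columns the shares were near each other, with 5 of 51 members and 11.5% of genes. At the 1.5-fold limit 32 members (54.2%) were higher against 17.9% of protein-coding genes, and 0 were lower against 26.1%. At 10 FPKM or more in both, 28 of 51 members were 1.5-fold higher, against 23.2% of genes, and 0 were lower, against 6.28%. By complex the median was 0.61 for I, 0.64 for II and 0.71 for V.

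The 6 members at least 2-fold higher were NDUFA4, NDUFA7, NDUFS4, SDHA, NDUFB6 and NDUFB1. NDUFA4 had the highest ratio (1.41), followed by NDUFA7 (1.29) and NDUFS4 (1.10), and NDUFB1 lay just above the limit. At the other end stood NDUFV2 (-0.55) and ATP5SL (-0.05), the members not higher in the late column, followed by NDUFC1 (0.14), ATP5S (0.18) and NDUFB7 (0.22). Of the 51 members with at least 10 FPKM in every library, 51 had their lowest value in the one labelled peak, which was also the lowest for 63.9% of the 4011 other protein-coding genes at that level.

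Scaling shifted every median, and in peak over early it changed the sign of the member median. With equal protein-coding sums the median of all protein-coding genes with at least 1 FPKM moved from -0.03 to 0.77 in peak over early and from 0.03 to -0.58 in late over peak. These sums include LALBA, at 70053, 15214 and 0 FPKM in the early, peak and late columns, so every equal-sum value depends on that gene. Without the 20 highest genes of each library, 26 genes in all with LALBA among them, the all-gene median moved to 0.24 and -0.21. The member median was then -0.37 and 0.39. The distance between the members and all protein-coding genes is the same under each scaling, because a scaling shifts every gene alike, and was -0.60 in peak over early, 0.03 in late over early and 0.60 in late over peak. Relative to the median protein-coding gene, the members thus stood lower in the library labelled peak than in the other libraries under each scaling.

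**Figure D4:**
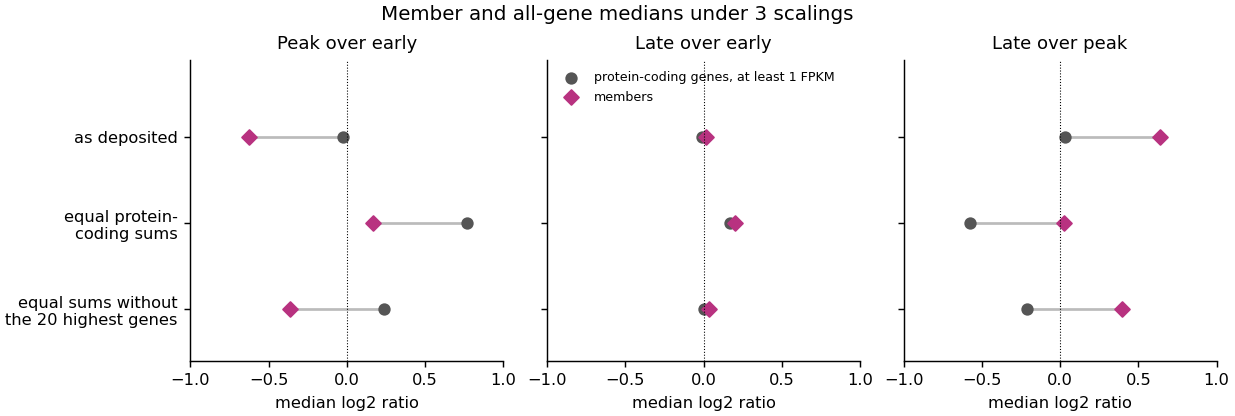
Median log2 ratio of the members and of protein-coding genes that reached 1 FPKM in both columns, for 3 scalings of the FPKM in each comparison. The member median of peak over early runs from -0.63 as deposited through -0.37 to 0.17 with equal protein-coding sums, while its distance from the median of all genes is -0.60 in each case.

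Other mitochondrial genes were counted in lists, with values from the FPKM as deposited, and most of these lists were also lower in the library labelled peak than in the early one. Counts of lower genes below stand against a background of 52.1% of protein-coding genes that reached 1 FPKM in both columns and 68.7% of those that reached 10 FPKM. Pyruvate dehydrogenase and the citrate cycle, which supply NADH and succinate, had a median log2 ratio of -0.51 with 14 of 16 genes lower, and their lowest ratios were those of PDHA1 (-0.85) and PDHB (-0.78). IDH3A, a subunit of the NAD-dependent isocitrate dehydrogenase, differed from the rest at 5.47, 11.9 and 4.57 FPKM in the early, peak and late columns (log2 ratio of peak over early 1.12). The carriers that exchange ADP, ATP and phosphate with the matrix and the outer membrane channels had a median of -0.66 over 5 genes, with SLC25A4, an ADP/ATP carrier, at -1.05 and SLC25A3, the phosphate carrier, at -0.97. That median includes VDAC3, at only 0.00105 and 0.00103 FPKM in the early and peak columns and 3.79 FPKM in the late one. Its ratio of -0.03 is therefore not read as a measured fold. Genes for coenzyme Q synthesis and the mobile electron carriers had a median of -0.52 over 14 genes, with the lowest ratio for COQ8A (-1.42) and the highest for COQ4 (0.50).

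Fatty acid beta-oxidation, which also feeds electrons to the chain, had a median of -0.47, with 9 of 12 genes lower and 3 higher, a share near that background. CPT1A, which controls the entry of long-chain fatty acids into mitochondria, had 6.63, 12.98 and 2.73 FPKM and was therefore highest in the library labelled peak, whereas HADH, which acts on the shorter chains, had 50.2, 26.4 and 54.1 FPKM and was lowest there, like most members. The uncoupling protein UCP2 had 4.43, 7.44 and 2.65 FPKM, an order opposite to that of the members.

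Lists of genes that build the chain had medians closer to 0 than the -0.63 of the members. The median was -0.12 for the 13 assembly factors of complex I, -0.24 for the 4 of complex II and -0.58 for the 4 of ATP synthase. Of these genes 8 of 13, 3 of 4 and 4 of 4 were lower. Their levels were also below those of the members, with early medians of 5.09, 9.52 and 18.1 FPKM against 41.6 FPKM. This difference in level was not taken out of the contrast. The complex I factors ran from NDUFAF3 at -1.16 to NDUFAF7 at 0.87. For the assembly factors of complexes III and IV the medians were -0.43 over 2 genes and -0.32 over 4 genes. Protein import and inner membrane chaperones had a median of -0.44, with 17 of the 18 genes above 0 in every column lower (TOMM20, at 0.162, 0.693 and 0 FPKM, was left out), and the mitochondrial ribosomal proteins, which translate the mitochondrially encoded subunits, one of -0.34 with 66 of 72 lower.

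Regulators of mitochondrial biogenesis had a median of -0.05, with 7 of 14 genes lower. ESRRA, a nuclear receptor that activates many respiratory chain genes, had 20.5, 8.55 and 13.7 FPKM in the early, peak and late columns. PPARGC1B, a coactivator that works with it, had 6.22, 2.85 and 5.50 FPKM, and NRF1, another activator of these genes, had 6.17, 7.64 and 5.58 FPKM. POLG2, from the same list, had 6.67, 9.88 and 6.84 FPKM. ESRRA and PPARGC1B were thus lowest in the library labelled peak, and NRF1 and POLG2 were highest there. No test of the difference between these lists and the members was possible.

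**Figure D5:**
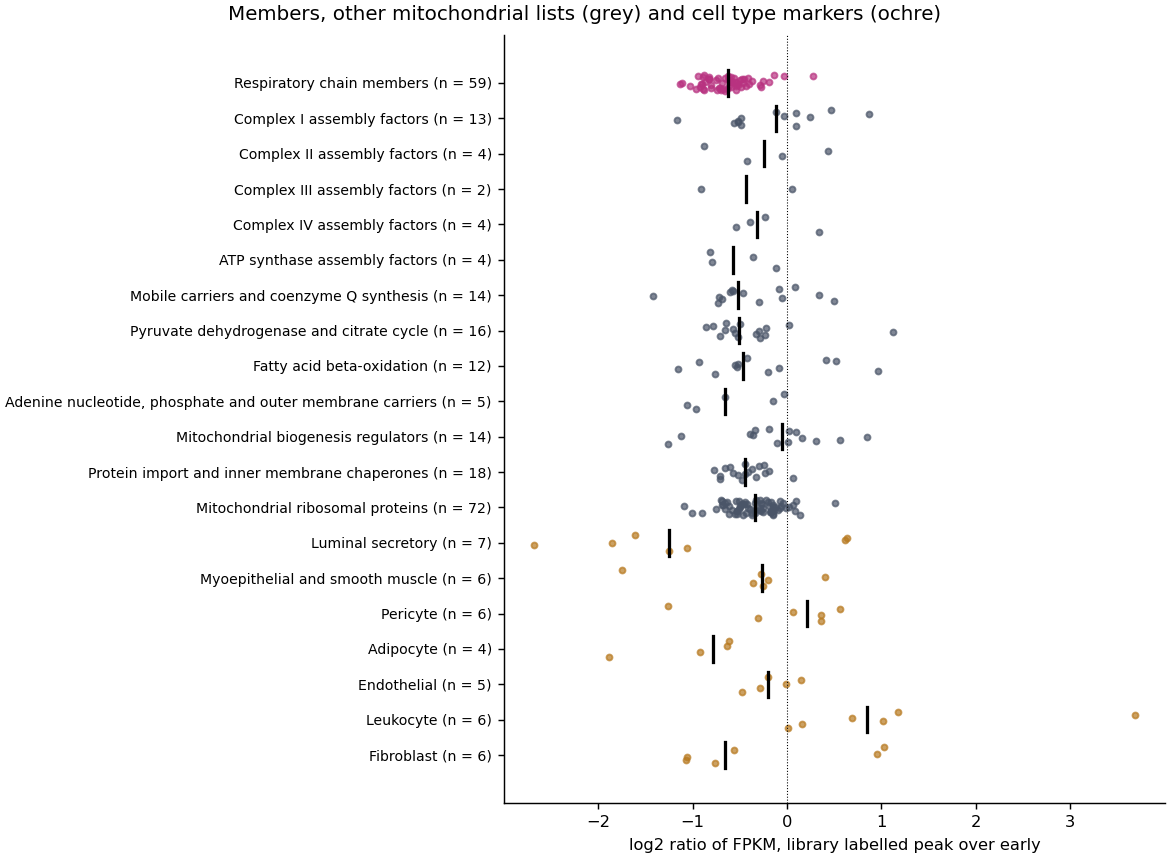
Log2 ratio of FPKM as deposited, library labelled peak over early, for each gene (points) of the members, of other mitochondrial lists and of cell type markers, with the median of each list as a bar and the number of genes above 0 in all libraries beside its name. The members lie at a median of -0.63, the luminal secretory markers at -1.24 and the leukocyte markers at 0.85.

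Markers of several cell types moved beside the members, and in whole tissue fewer cells of a type and less RNA per cell cannot be told apart. The summed FPKM of the 8 luminal secretory markers was 126080 in the library labelled early, 33441 in the one labelled peak and 73820 in the one labelled late. LALBA, at 0 in the late column, decides the order of early and late: without it the sums were 56027, 18227 and 73820 FPKM. Of the 7 markers above 0 in all libraries 5 were lower in the peak column than in the early one, with CSN3, a casein gene, at a log2 ratio of -2.67, while the luminal keratins KRT8 and KRT18 were higher at 0.64 and 0.61. The 7 leukocyte markers summed to 303, 493 and 361 FPKM, most of it from the antibody chain gene JCHAIN, and to 36.3, 64.5 and 24.0 FPKM without it. In late over early 5 of the 6 markers above 0 in all libraries were lower, with a median log2 ratio of -0.79, against 51.8% of protein-coding genes that reached 1 FPKM in both columns. All 6 were higher in the peak column than in the early one, against 47.9% of such genes. CD14 and CD68 hardly differed there, at log2 ratios of 0.01 and 0.16. PTPRC, carried by all leukocytes, had 17.6, 39.9 and 8.08 FPKM. CD3E, which marks T cells, was listed at 0 in the libraries labelled early and peak. Adipocyte markers had a median of -0.78 over 4 genes, fibroblast markers -0.66 over 6 (COL1A1, COL1A2, COL3A1 and LUM lower, DCN and PDGFRA higher at 0.96 and 1.03), myoepithelial and smooth muscle markers -0.26 over 6, endothelial markers -0.20 over 5 and pericyte markers 0.21 over 6. Of 8 striated muscle markers only TNNT3 was found, at 0.935 FPKM in the early column and 1.37 FPKM in the late one. The part of these markers in the member ratios was not tested.

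Members lay on 46 scaffolds of the assembly used in the deposited table, with a median span of 8185 nt. Neighbouring members within 150 kb of each other included ATP5D and NDUFS7, which were 123288 nt apart with log2 ratios of peak over early of -0.88 and -0.59. NDUFV1 and NDUFS8 were 89399 nt apart with -0.83 and -0.89. For 8 members (ATP5J, NDUFA2, NDUFA4L2, NDUFB1, NDUFS3, NDUFS8, SDHB and SDHD) another entry of the table had the same coordinates, so fragments may have been divided between entries.

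The profile of the members was also compared with that of single genes outside the set. Among 4011 other protein-coding genes with at least 10 FPKM in every library, the 5 whose 3 centred log2 levels were nearest to the median member profile were VPS36, DGKA, IQGAP2, MYO9A and NAA50, with Euclidean distances from 0.0113 to 0.0182. VPS36, an endosomal sorting protein, had 16.3, 10.6 and 16.3 FPKM in the early, peak and late columns. Likeness over 3 values is a weak measure, since many genes can share it.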

How the data were processed

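Per the submitters' processing notes, the authors used TopHat2 2.0.9, Bowtie2 and Cufflinks 2.1.1, and the deposited table holds FPKM for 50041 loci in 3 pooled libraries of 5 goats each. The authors' methods add trimming of reads and merging of the assemblies. The methods name a goat genome of version 1.01 for mapping and a later RefSeq assembly for assembling transcripts. Which of them the coordinates of the deposited table follow is not stated, and the fragment counts behind each FPKM are unknown, so no interval could be given.

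Loci whose identifier ends in a single goat gene ID were matched to a RefSeq gene table (assembly ARS1.2, used for names and biotype only): 14290 of 15161 such loci matched. FPKM were summed by gene. Log2 ratios of FPKM were taken, with 0 replaced by 0.001 (no member was at 0). Background percentages count every protein-coding gene above 0 in either library compared. Python 3.11.15, pandas 2.3.3 and numpy 2.4.6 were used, and the calculation was tested on simulated data. Genes were named as the top and bottom member per complex by mean FPKM, the top and bottom 5 ratios per comparison, all at least 2-fold apart, paralogs and core subunits. The members and lists were chosen with earlier results of these data known. The values of 1 member, included in all counts and medians, are not reported here.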

Additional observations from a re-analysis of the deposited data

How the results depend on the processing

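No paired analysis was possible because there was only 1 library per stage, and leaving out a replicate was not possible for the same reason. The member median of peak over early was -0.61 with a pseudocount of 1, -0.60 for members with coordinates of their own or centred on all protein-coding genes, -0.64 without ATP5S and ATP5SL or for members with at least 10 FPKM, -0.44 centred on genes with at least 10 FPKM, -0.37 without the 20 highest genes, and 0.17 with equal protein-coding sums; with the columns labelled peak and late exchanged it was 0.018. The number at least 2-fold apart was then 1 with equal sums, higher in the peak column and so not among the 3 lower members as deposited. It was 0 without the 20 highest, centred on genes with at least 10 FPKM or exchanged, against 36 at 1.5-fold and 0 at 4-fold. Late over early was 0.031 centred on all protein-coding genes, 0.20 with equal sums, 0.035 without the 20 highest, -0.018 centred on genes with at least 10 FPKM and -0.63 exchanged, with 3 members then at least 2-fold apart. Late over peak was 0.62 with a pseudocount of 1, 0.63 for own coordinates, with at least 1 FPKM or without low isoforms, and 0.67 without ATP5S and ATP5SL. It was 0.60 and 0.41 when centred on all or on genes with at least 10 FPKM. It was 0.39 without the 20 highest, 0.028 with equal sums and -0.64 exchanged. Under equal sums 1 member was at least 2-fold apart, lower in the late column, where the 6 as deposited were higher. The number was 2 without the 20 highest or centred on genes with at least 10 FPKM, 32 at 1.5-fold and 0 at 4-fold. By complex, medians over 0.1 from 0 changed sign in peak over early with equal sums (I 0.20, II 0.043, V 0.091) and exchanged (I 0.020, II 0.034), and in late over peak exchanged (I -0.61, II -0.64, V -0.71). Medians of late over early, nearer to 0, also changed sign: V with equal sums (0.17), without the 20 highest (0.0073), centred on all genes (0.0030) and without ATP5S and ATP5SL (0.011), and I and II exchanged (-0.59 and -0.75) and centred on genes with at least 10 FPKM (-0.017 and -0.0023). The settings without ATP5S and ATP5SL, with at least 10 FPKM and centred on genes at that level were chosen after seeing the data. A scaling shifts all genes alike by construction. The equal protein-coding sums include LALBA, at 0 in the late column, and so depend on that gene. What decides between the scalings, or the labels of the exchanged columns, was not tested.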

Other observations

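Of the 177 FPKM values of the members, 98 are written with 7 significant digits and 97 of these end in the digit 5, the form that the mean of a pair of shorter numbers takes. Whether values of separate runs were averaged is not given in the sources used here.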
